A study of Mus musculus with 2 samples.

Results

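The GABA-A receptor subunit genes Gabra2, Gabra4, Gabra5, Gabrb1, Gabrb2, Gabrg1 and Gabrd were followed across the cell classes of the adult mouse striatum. They were taken by symbol and not by their counts, although earlier results of these data were known when they were chosen. They make up 7 of the 32285 genes in the count tables. Each symbol matched 1 row in both libraries. In all, the kept cells gave 5238 UMIs (unique molecular identifiers, each counting 1 captured RNA molecule) for Gabrb1, 2033 for Gabra2, 1992 for Gabrg1, 1165 for Gabra4, 724 for Gabrd, 301 for Gabrb2 and 116 for Gabra5.

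The data are 2 droplet libraries (10x Genomics, 3′ tags) of dissociated striatum from untreated mice aged 8 to 10 weeks, replicates 1 and 2 of 1 condition. This age is that of the labels, whereas the study's methods name male mice of a slightly younger age. The strain is C57/Bl6J in the sample labels and C57BL/6NTac in the protocol, no transgene is named, and the suspension was labelled as enriched for glia. The labels do not say which or how many mice stand behind each library, so no p-value here can be read as a spread between mice. The p-values rest on how far groups differed alike in the 2 libraries, after the overall difference between libraries was taken out. Comparisons of classes came from 1 fit, in which all tested classes shared the estimate of spread. A small p-value there does not rest on 2 values per class alone. Comparisons within a class were each fitted on their own 2 groups, where the spread of a gene leans on that of other genes.

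GABA-A receptors are chloride channels gated by GABA, the main inhibitory transmitter of the brain, and they assemble as pentamers from a family of related subunits. The alpha and beta subunits form the GABA binding sites, and a gamma or delta subunit completes most receptors. Many receptors gather at synapses, whereas delta-containing receptors, often with alpha 4, lie outside them and respond to ambient GABA. The striatum is built largely of GABA-releasing spiny projection neurons, and astrocytes and oligodendrocyte precursors also carry GABA-A receptors.

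Library 1 held 6978 cell barcodes and 44597660 UMIs, and library 2 held 5437 barcodes and 37982720 UMIs. After removal of cells with fewer than 300 genes and of called doublets, 12017 of 12415 cells were kept, and 9 barcodes were shared by the libraries. Cells were clustered without the 7 members, and the clusters were named from marker genes. The neuron-like class held 382 and 260 cells in libraries 1 and 2, the astrocyte-like class 1351 and 988, the class like oligodendrocyte precursor cells (OPC-like) 301 and 343, the oligodendrocyte-like class 1192 and 1181, and the neuroblast-like class, which included cycling cells and 127 ependymal-like cells, 1156 and 488. Endothelial-like, mural-like, microglia-like and macrophage-like classes were also named, and an erythroid-like class was too small to test. UMIs were summed per class and library, and levels are given as CPM, the gene's UMIs divided by all UMIs of that sum and multiplied by 1e+06. In such sums, fewer expressing cells and less RNA per cell cannot be told apart. The 3′ tags carry no gene length, so levels were compared between classes and not between genes.

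Gabrg1, Gabra2, Gabra4 and Gabrb1 lie together on chromosome 5 within 1.4 Mb (GRCm38, the build of the files), whereas the other members are on separate chromosomes. Gabrg1 (ENSMUSG00000001260) occupies chr5:70751047-70842617 and Gabra2 (ENSMUSG00000000560) chr5:70957597-71095849, both on the minus strand, with a gap of 115.0 kb and 0 protein-coding genes between them. Gabra4 (ENSMUSG00000029211) follows at chr5:71569749-71658308 on the minus strand, 473.9 kb further, with Cox7b2 between. Gabrb1 (ENSMUSG00000029212), at chr5:71658113-72149037 on the plus strand, is head to head with Gabra4, and the annotated starts overlap. Gabra5 (ENSMUSG00000055078) is at chr7:57407672-57510059 on the minus strand, Gabrb2 (ENSMUSG00000007653) at chr11:42419757-42629028 on the plus strand and Gabrd (ENSMUSG00000029054) at chr4:155384980-155398112 on the minus strand.

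The sequences upstream of the 4 neighbours on chromosome 5 are shown because these genes, although adjacent, did not all share a class pattern. Gabra2 and Gabra4 were highest in neuron-like cells, and Gabrb1 and Gabrg1 in astrocyte-like cells. They are given 5′ to 3′ on the gene's own strand from RefSeq (GRCm38.p6), with each CG dinucleotide in capitals. The windows are the 250 bases before the start of Gabrg1 at chr5:70842618-70842867 and of Gabra2 at chr5:71095850-71096099, the 250 bases before the second annotated start of Gabrb1 at chr5:71699682-71699931, and 195 bases upstream of Gabra4 at chr5:71658364-71658558, shortened where a Gabrb1 exon begins. That cut left out the bases nearest the Gabra4 start.
Gabrg1: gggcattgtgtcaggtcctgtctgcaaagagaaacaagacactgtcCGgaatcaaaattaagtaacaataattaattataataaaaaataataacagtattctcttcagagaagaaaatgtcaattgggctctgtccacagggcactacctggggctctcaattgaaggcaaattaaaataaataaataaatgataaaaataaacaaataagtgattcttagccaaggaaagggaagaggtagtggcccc
Gabra2: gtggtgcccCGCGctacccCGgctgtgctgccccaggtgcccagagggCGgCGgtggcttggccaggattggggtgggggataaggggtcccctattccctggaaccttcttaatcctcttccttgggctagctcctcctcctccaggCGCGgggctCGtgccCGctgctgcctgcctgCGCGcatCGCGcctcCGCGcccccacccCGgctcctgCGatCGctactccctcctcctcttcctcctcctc
Gabra4: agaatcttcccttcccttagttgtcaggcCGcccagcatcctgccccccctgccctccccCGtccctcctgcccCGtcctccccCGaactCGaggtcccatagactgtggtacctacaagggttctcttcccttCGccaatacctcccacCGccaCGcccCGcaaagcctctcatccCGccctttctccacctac
Gabrb1: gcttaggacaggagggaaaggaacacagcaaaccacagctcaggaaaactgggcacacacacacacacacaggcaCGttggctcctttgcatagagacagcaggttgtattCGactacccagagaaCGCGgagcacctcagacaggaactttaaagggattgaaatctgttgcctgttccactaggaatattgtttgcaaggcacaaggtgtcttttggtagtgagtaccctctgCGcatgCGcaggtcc

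The Gabrg1 window held 1 CG dinucleotide, that of Gabra2 held 18, that of the second Gabrb1 start held 6 and the shorter one of Gabra4 held 10. Over 32851 windows of 27025 mouse genes, the median was 6 and the quartiles were 2 and 16, which put Gabrg1 at percentile 18.8 and Gabra2 at percentile 80.3. The letters GGGCGG, searched on both strands, were found in the Gabra2 and Gabra4 windows and in 32.7% of all windows. The letters TATAAA were in none of these 4 windows and in 12.4% of all windows. The Gabra4 window lacks the bases next to the start, so it cannot show whether TATAAA occurs there. Gabrb1 has an earlier annotated start whose upstream window lies inside Gabra4 and held 18 CG dinucleotides, and 3′ tags do not tell which start was used. Of the 7 members, 6 had an entry in the sequence table, and Gabrd did not.

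Of the alpha subunits, Gabra2, which marks many forebrain synaptic receptors, was highest in neuron-like cells, at 303 CPM (95% exact Poisson interval 276 to 332, covering counting error only) in library 1 and 423 CPM (388 to 461) in library 2, or 363 ± 84.9 (SD, n = 2). Astrocyte-like cells followed at 45.8 and 57.2 CPM, OPC-like cells at 38.9 and 41.5 CPM, and neuroblast-like cells at 23.9 and 16.4 CPM. Both neuron-like values lay above all values of the other classes. In descending order Gabra2 fell from neuron-like to astrocyte-like, OPC-like, neuroblast-like and endothelial-like cells, each step past the test. The step from astrocyte-like to OPC-like cells depended on the method. The step from OPC-like to neuroblast-like cells (adjusted p = 0.0422, edgeR) and the next one were tested under no other setting. The neuroblast-like sums include 127 ependymal-like cells, whose finer cluster, described further on, had more Gabra2 than the class. The part of these cells in both steps was not tested. The remaining classes were not separated from one another.

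Gabra4, which pairs with delta in receptors outside synapses, was 200 CPM (178 to 224) and 172 CPM (150 to 196) in neuron-like cells, or 186 ± 20.0 (SD, n = 2). In astrocyte-like cells Gabra4 was 34.7 CPM (29.4 to 40.8) and 52.6 CPM (46.0 to 59.9), ahead of 10.9 and 15 CPM in OPC-like cells. OPC-like and neuroblast-like cells, the latter at 9.09 and 9.20 CPM, did not differ beyond their spread (adjusted p = 0.643, edgeR). Neuron-like cells therefore led astrocyte-like cells, and these led all other classes, in both libraries.

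Gabra5, an alpha subunit found mainly outside synapses in the hippocampus, was sparse. It reached 27.7 CPM (20.1 to 37.4) and 25.6 CPM (17.5 to 36.1) in neuron-like cells, from 43 and 32 UMIs. No other class passed 1.67 CPM in either library, and 0 UMIs in the OPC-like cells of library 1 allow up to 1.91 CPM. Below the neuron-like class, no neighbours in the order of Gabra5 were separated.

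Gabrb1, a beta subunit, was highest in astrocyte-like cells, at 437 CPM (418 to 457) and 470 CPM (449 to 491), or 453 ± 23.1 (SD, n = 2). In neuron-like cells Gabrb1 was 132 CPM (115 to 152) and 230 CPM (204 to 258), so that the lower astrocyte-like value was above the higher neuron-like one. OPC-like cells followed at 72.1 and 64.5 CPM, and neuroblast-like cells at 25.4 and 31.4 CPM. Every step of this order down to the mural-like class passed the test. The neuroblast-like sums include 127 ependymal-like cells, whose finer cluster, described further on, had more Gabrb1 than the class. The part of these cells in the step to mural-like cells was not tested. Astrocyte-like cells held 75% of all Gabrb1 UMIs, and neuron-like cells, which were far fewer, 9.4%.

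Gabrb2, the beta subunit of many neuronal synaptic receptors, had the opposite relation of astrocyte-like and neuron-like cells. It was 31.6 CPM (23.4 to 41.8) and 54.3 CPM (42.2 to 68.8) in neuron-like cells. Astrocyte-like cells gave 2 Gabrb2 UMIs per library, or 0.460 and 0.463 CPM. OPC-like cells had 15 CPM (10.1 to 21.6) and 25.6 CPM (19.4 to 33.1), and neuroblast-like cells 8.24 and 10.2 CPM. Neuron-like cells were above OPC-like cells by a log2 fold change of 1.17, whereas OPC-like and neuroblast-like cells were not separated (adjusted p = 0.0639, edgeR). Gabrb2 was at most 0.205 CPM in each of the 5 non-neural and oligodendrocyte-like classes.

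Gabrg1, a gamma subunit found in a minority of receptors, was highest in astrocyte-like cells, at 134 CPM (123 to 145) and 204 CPM (190 to 218), or 169 ± 49.3 (SD, n = 2). OPC-like cells had 50.3 and 54.7 CPM, and neuron-like cells 21.3 CPM (14.7 to 29.9) and 60.7 CPM (47.8 to 76.0). The neuron-like values lay on either side of the OPC-like ones, and the classes were not separated (adjusted p = 0.501, edgeR). Neuroblast-like cells were lower than both, at 6.82 and 7.50 CPM. Of all Gabrg1 UMIs, 73.3% were in astrocyte-like and 11.1% in OPC-like cells.

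Gabrd, the delta subunit, was nearly limited to one class. It was 221 CPM (198 to 246) and 169 CPM (147 to 194) in neuron-like cells, or 195 ± 36.8 (SD, n = 2), and at most 4.14 CPM in any other class. Neuron-like cells gave 76.7% of Gabrd UMIs, and no neighbours below them in the order were separated.

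In the 5 remaining classes (endothelial-like, mural-like, microglia-like, macrophage-like and oligodendrocyte-like) the highest value in either library was 11.5 CPM for Gabrb1, 6.51 for Gabra2, 6.47 for Gabra4, 3.84 for Gabrg1, 3.34 for Gabrd and 1.67 for Gabra5. Each of these values lay below that gene's levels in its leading class.

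**Figure D1:**
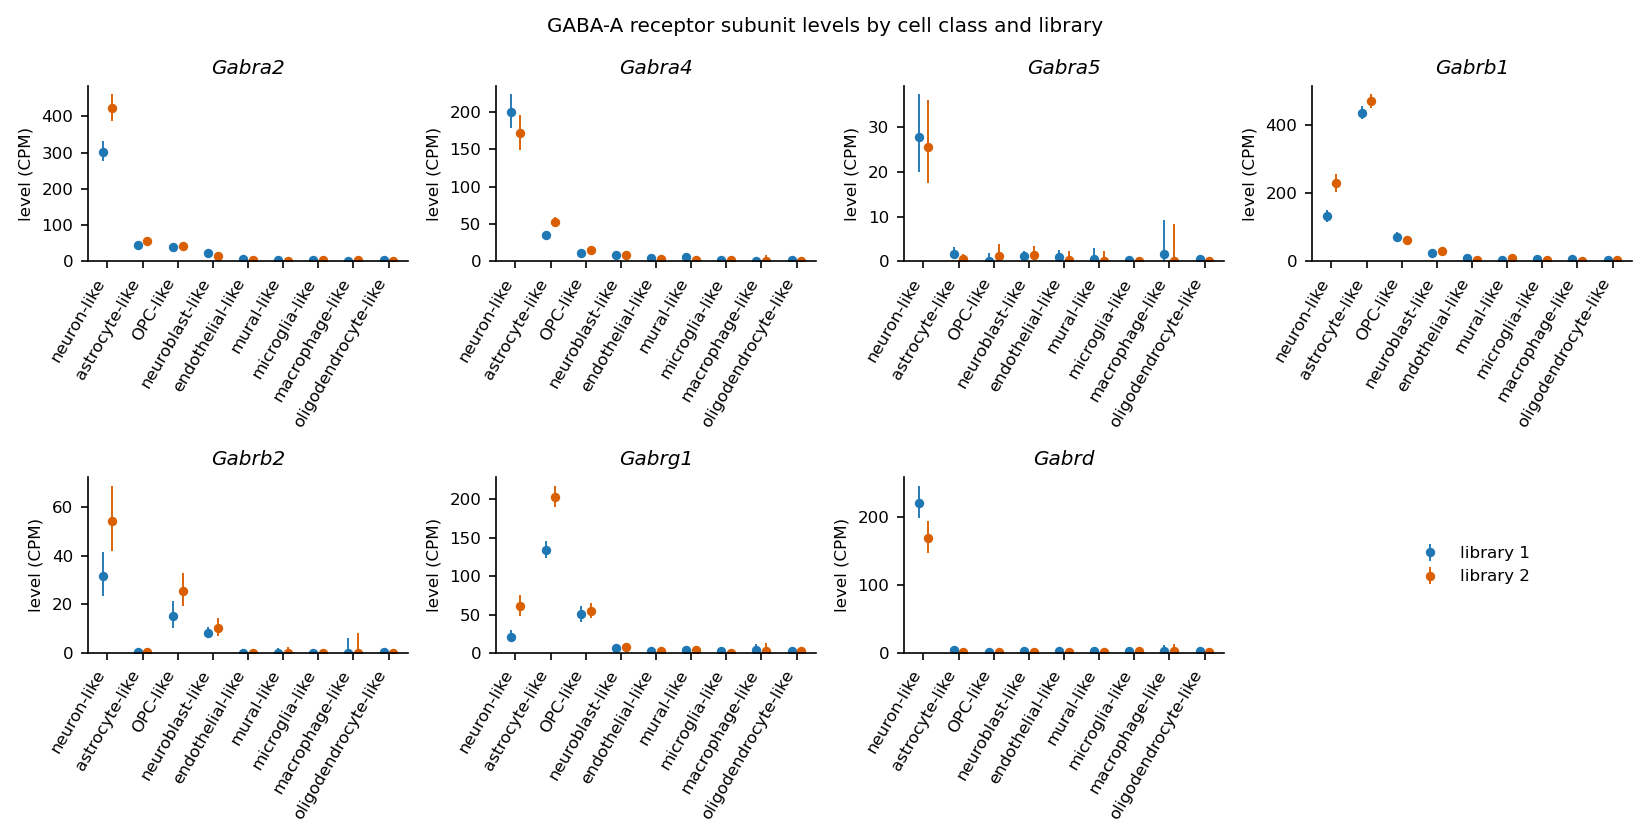
Level of each GABA-A receptor subunit gene in CPM (vertical axes, linear and different for each gene) in 9 cell classes. Points are libraries and bars are 95% exact Poisson intervals; Gabra2, Gabra4, Gabra5, Gabrb2 and Gabrd peak in neuron-like cells, Gabrb1 and Gabrg1 in astrocyte-like cells, and OPC-like cells are second by mean for Gabrb2 and Gabrg1.

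To ask how the subunits differed between neurons and astrocytes, class sums were compared in edgeR (quasi-likelihood test, library as block) with Benjamini-Hochberg adjustment over 15248 genes. All 7 members passed, 5 higher in neuron-like cells and 2 higher in astrocyte-like cells, with a median log2 fold change of 2.56 against -0.0728 over all genes tested. Of all genes, 23.5% were called higher in neuron-like cells and 27.6% lower. The higher members were Gabrb2 (log2 fold change 6.17 ± 0.52 SE, adjusted p = 3.0e-07), Gabrd (5.96 ± 0.29, 3.8e-10), Gabra5 (4.43 ± 0.66, 2.9e-05), Gabra2 (2.56 ± 0.22, 8.1e-08) and Gabra4 (1.83 ± 0.28, 4.2e-05). The lower members were Gabrg1 (-2.34 ± 0.33, 1.8e-05) and Gabrb1 (-1.59 ± 0.24, 3.1e-05). The ratio for Gabrb2 rests on 4 UMIs in astrocyte-like cells and was 90.4 with an exact interval of 34.4 to 337. The class pattern thus crossed the subunit types, since each of the alpha members was higher in neuron-like cells and the beta members moved in opposite directions.

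Between neuron-like and OPC-like cells, 6 of 7 members were higher in neuron-like cells, where 20.6% of all genes were called higher, and the members' median log2 fold change was 3.27 against -0.0655 over all genes. These comparisons share class sums, so their values are given side by side and not as independent evidence. Gabrd (6.92 ± 0.35), Gabra5 (5.22 ± 0.80), Gabra4 (3.92 ± 0.34) and Gabra2 (3.27 ± 0.24) had log2 fold changes above 3, and Gabrb1 (1.49 ± 0.26) and Gabrb2 (1.17 ± 0.33) were closer. The ratio for Gabra5 rests on 3 UMIs in OPC-like cells and was 37.4 (12.3 to 185). The value for Gabrd rests on 7 UMIs in OPC-like cells, where its mean of 1.66 CPM was the lowest of all tested classes. Gabrg1 did not pass (-0.32 ± 0.36, adjusted p = 0.501, edgeR).

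OPC-like cells differed from astrocyte-like cells in 5 of 7 members, 1 higher and 4 lower, against 23.0% of all genes called higher and 20.3% lower. Their median was -0.959, against 0.0191 over all genes. Gabrb2 was higher in OPC-like cells (5.00 ± 0.55, adjusted p = 6.0e-06, edgeR), a ratio of 44.9 (16.9 to 169). Gabrb1 (-3.08 ± 0.25), Gabra4 (-2.09 ± 0.35), Gabrg1 (-2.02 ± 0.31) and Gabra2 (-0.71 ± 0.25, adjusted p = 0.0280) were lower. The Gabra2 call was lost without TMM scaling (-0.36, adjusted p = 0.236) and in DESeq2 (-0.79, adjusted p = 0.0553). Dropping TMM moved the median of all genes in this comparison by 0.34, and 37.7% of them were then called higher. Gabrd (-0.96, adjusted p = 0.206) and Gabra5 (-0.79, adjusted p = 0.625) did not pass, at few UMIs in both classes.

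OPC-like cells were then set against oligodendrocyte-like cells, a class that also held the 271 cells with genes of committed precursors described further on. 5 of 7 members were higher in OPC-like cells, against 23.7% of all genes, and the median was 2.81 against -0.0994. With library sizes alone 48.8% of all genes were called higher and 11% lower, and the median of all genes was 0.66. The members called were Gabrb2 (6.19 ± 0.52), Gabrg1 (3.61 ± 0.38), Gabrb1 (3.39 ± 0.30), Gabra2 (2.81 ± 0.29) and Gabra4 (2.27 ± 0.46), each with an adjusted p of 5.5e-04 or less. The Gabrb2 ratio, with 4 UMIs in oligodendrocyte-like cells, was 154 (58.0 to 578). Gabra5 (0.82, adjusted p = 0.629) and Gabrd (-0.87, adjusted p = 0.197) did not pass.

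All 7 members were lower in neuroblast-like than in neuron-like cells, where 25.5% of all genes were called lower. The log2 fold change was -6.32 for Gabrd, -4.24 for Gabra5, -4.18 for Gabra4, -3.96 for Gabra2, -2.51 for Gabrb1, -2.26 for Gabrg1 and -2.0 for Gabrb2. The largest estimate was for Gabrd and the smallest for Gabrb2, and the median was -3.96 against 0.0433 over all genes. Against astrocyte-like cells, neuroblast-like cells were higher for 1 member, with 28.2% of all genes called higher, and lower for 4, with 28.4% called lower. Gabrb2 was the higher one (4.16 ± 0.57, a ratio of 19.1 with an interval of 7.20 to 71.7), and Gabrg1 (-4.60 ± 0.36), Gabrb1 (-4.10 ± 0.26), Gabra4 (-2.35 ± 0.33) and Gabra2 (-1.39 ± 0.24) were lower. The median was -1.39 against -0.00893 over all genes, and Gabrd and Gabra5 did not pass (adjusted p = 0.521 and 0.885, edgeR). The neuroblast-like sums include 127 ependymal-like cells, whose finer cluster had more Gabrb1 and Gabrg1 than the class in both libraries. Resolution 0.32 set ependymal-like and progenitor-like cells apart. There 7 members were again called against neuron-like and 5 against astrocyte-like cells.

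Mural-like and endothelial-like cells, the contractile and lining cells of vessels, differed in 0 of 7 members in edgeR, in which 27.2% of all genes were called in either direction. Gabrb2 had 0 UMIs in both classes. The classes were partly mixed, since the mural-like class raised all 8 endothelial markers, which summed to 4958 and 5770 CPM there. A finer clustering set apart and left unnamed 63 mural-like cells led by Rgs5, Vtn and Higd1b, which raised all 8 endothelial markers. They held 543041 of 1853641 mural-like UMIs in library 1 and 514800 of 1561941 in library 2. Their part in the marker sums was not tested. That clustering also left unnamed 56 mural-like cells led by Dcn, Igfbp2, Slc6a13, Igf2 and Col1a1. At an unadjusted p under 0.05 the count was also 0, against 5591 of all 15248 genes tested, and DESeq2 called 0. The median was -0.169 for the members and -0.143 for all genes.

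**Figure D2:**
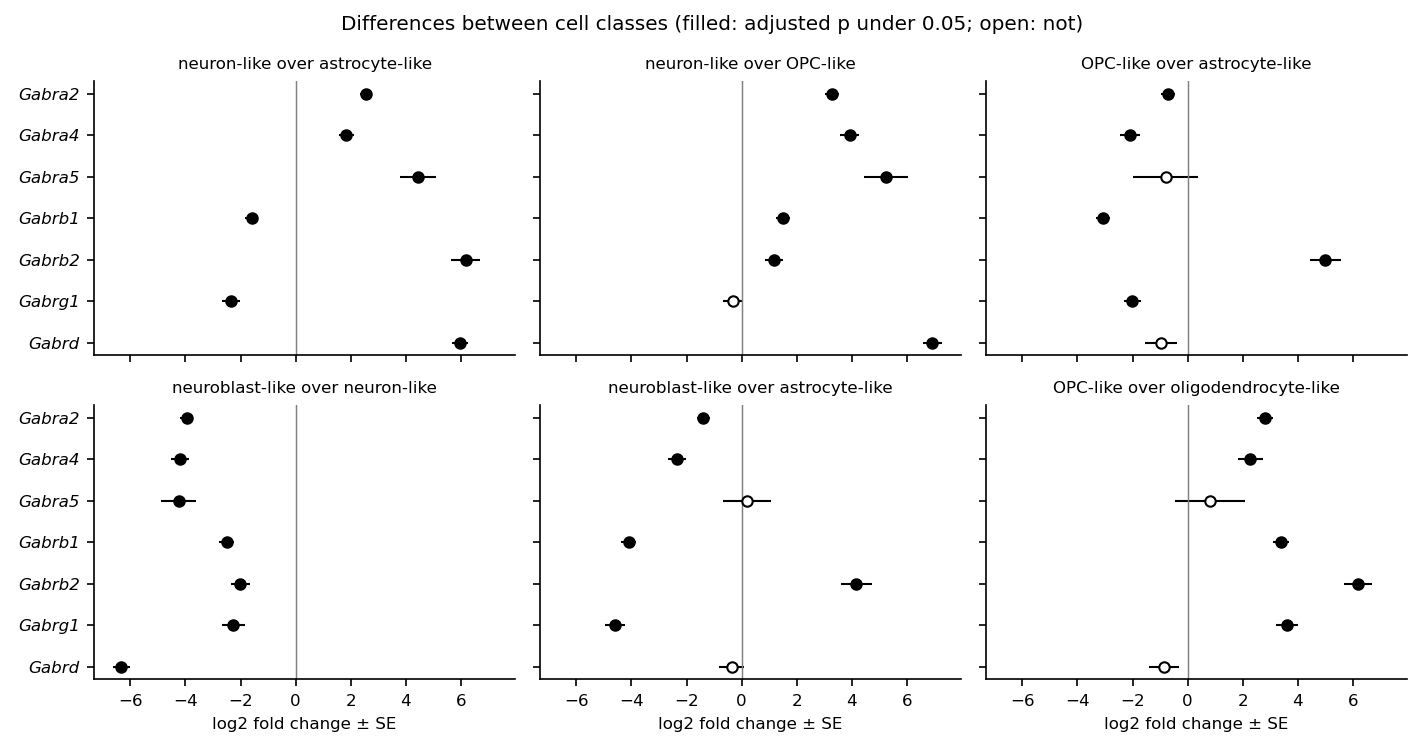
Log2 fold change of each GABA-A receptor subunit gene between the named classes (horizontal axes; points are edgeR estimates, bars ± 1 SE, filled points have an adjusted p under 0.05). Gabrb1 and Gabrg1 lie left of 0 and the other 5 genes right of 0 in neuron-like over astrocyte-like cells, Gabrb2 alone lies right of 0 and past the test in OPC-like over astrocyte-like cells, and all 7 lie left of 0 in neuroblast-like over neuron-like cells.

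The share of cells with a UMI followed the same classes after each cell was thinned to 1000 UMIs, which left out 364 and 105 shallower astrocyte-like cells and 113 and 52 neuron-like cells. Gabrb1 was detected in 31.3% (95% exact binomial interval 28.4 to 34.3) and 35.4% (32.3 to 38.7) of astrocyte-like cells in libraries 1 and 2, in 8.92% and 15.9% of neuron-like cells, and in 0.684% and 0.826% of microglia-like cells, which should lack it. Before thinning, 47.9% and 64.5% of astrocyte-like cells had a Gabrb1 UMI. Gabrg1 was detected in 12.5% and 17.7% of astrocyte-like, 5.19% and 5.37% of OPC-like and 0.196% and 0% of microglia-like cells after thinning, and in 27.2% and 45.6% of astrocyte-like cells before it. Both astrocyte-like shares were well above the microglia-like background for these genes.

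In neuron-like cells Gabra2 was detected in 25.7% and 33.2% after thinning, against 4.86% and 5.32% of astrocyte-like and 0.782% and 0.310% of microglia-like cells. Gabrd was detected in 19.0% and 18.3% of neuron-like cells, against 0.507% and 0.113% of astrocyte-like and 0.489% and 0.310% of microglia-like cells. The Gabrd share of astrocyte-like cells was therefore at the background, and that of Gabra2 above it. Unthinned shares in neuron-like cells were 49.7% and 58.5% for Gabra2 and 34.8% and 33.8% for Gabrd. Median depths were 2501.5 and 2638.5 UMIs in neuron-like, 1719 and 2791 in astrocyte-like and 6928 and 5500 in microglia-like cells.

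**Figure D3:**
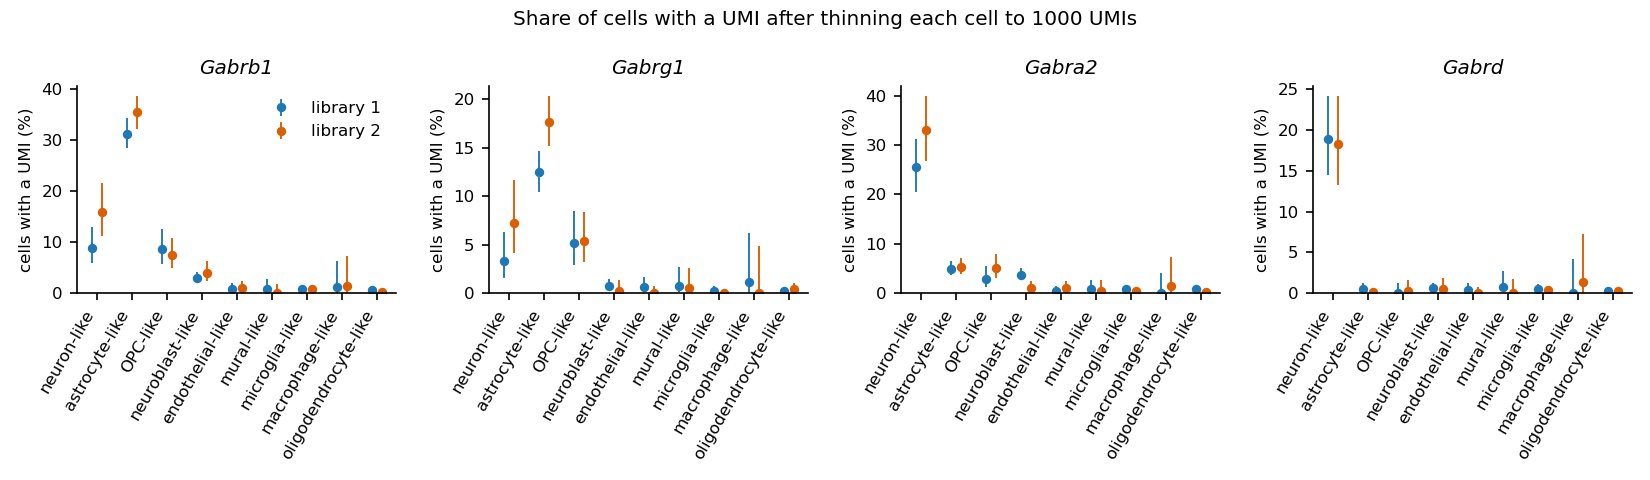
Percentage of cells with at least 1 UMI of Gabrb1, Gabrg1, Gabra2 and Gabrd (vertical axes) in each class after every cell was thinned to 1000 UMIs. Points are libraries and bars are 95% exact binomial intervals; Gabrb1 and Gabrg1 are detected most often in astrocyte-like cells, and Gabra2 and Gabrd in neuron-like cells.

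The neuron-like class was split further into subclusters, without integration of the libraries. A D2-like subcluster, with markers of indirect-pathway projection neurons, held 92 and 49 cells, and an interneuron-like subcluster with Sst and Npy held 12 and 83. A Drd1 subcluster of 38 and 30 cells had raised Drd1, Tac1 and Pdyn, genes of direct-pathway neurons, but hemoglobin genes led it, and it was given no cell type name. Further subclusters held C1ql3 and Slc17a7 as leading genes (subcluster 5, 38 and 16 cells) or Rreb1 (subcluster 6, 12 and 31 cells). The 3 remaining subclusters, of 153, 62 and 26 cells, were left unnamed, the first 2 of them led by genes of glia. The subcluster of 26 cells was led by Crabp1, Nap1l5 and Th and raised 3 neuroblast markers. Its cells were deep, so it held 246906 of 1549913 neuron-like UMIs in library 1 and 414209 of 1252091 in library 2. Levels of the neuron-like class are sums of UMIs and therefore lean on these few cells.

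Gabra4 and Gabrd were high in D2-like cells and low in interneuron-like cells. Gabra4 was 293 CPM (249 to 342) and 288 CPM (228 to 359) in D2-like cells, 106 CPM (59.3 to 175) and 250 CPM (166 to 361) in the Drd1 subcluster, and 0 CPM (up to 106) and 44.2 CPM (21.2 to 81.3) in interneuron-like cells. Gabrd was 394 CPM (342 to 450) and 388 CPM (317 to 469) in D2-like cells, 205 and 357 CPM in the Drd1 subcluster, and 0 and 35.4 CPM (15.3 to 69.7) in interneuron-like cells. The 12 interneuron-like cells of library 1 were too few for a test, so the contrast with interneuron-like cells is a description.

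Gabrg1 had the reverse order. It was 173 CPM (63.4 to 376) and 186 CPM (134 to 251) in interneuron-like cells, 21.2 and 44.6 CPM in the Drd1 subcluster, and 11.2 and 0 CPM (up to 13.6) in D2-like cells. The intervals of the interneuron-like level overlapped between libraries, while the number of such cells went from 12 to 83 as Gabrg1 in the whole neuron-like class went from 21.3 to 60.7 CPM. The part of cell makeup in that library difference was not tested.

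Gabra2 was spread more evenly over the neuron subclusters, at 384 and 443 CPM in D2-like cells, 452 and 527 in the Drd1 subcluster and 317 and 650 in interneuron-like cells. Gabrb1 was 147 and 170 CPM in D2-like, 141 and 143 in the Drd1 subcluster and 288 and 274 in interneuron-like cells. The interneuron-like value was the highest of these in both libraries. Library 1 held only 12 such cells, where 3 UMIs make 86.4 CPM, and the difference was not tested. Gabrb2 was 48.5 and 88.6 CPM in D2-like cells and 42.4 and 71.4 in the Drd1 subcluster. Gabra5 reached 50.5 and 138 CPM in subcluster 5, where 3 UMIs make 30.3 and 51.7 CPM, so these values rest on few UMIs.

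Between the Drd1 subcluster and D2-like cells, 0 of 5 members with enough counts passed in edgeR, where 4.44% of all genes were called in either direction. At an unadjusted p under 0.05 the count was 1, Gabra4, against 760 of all 4011 genes tested, and DESeq2 called 0. Log2 fold changes (Drd1 subcluster over D2-like) were -0.76 ± 0.31 for Gabra4 (adjusted p = 0.134), -0.50 ± 0.28 for Gabrd, 0.27 ± 0.26 for Gabra2, -0.23 ± 0.46 for Gabrb2 and -0.12 ± 0.34 for Gabrb1. In the Drd1 subcluster the summed erythroid markers were 28795 CPM in library 1 and 27 CPM in library 2, and Gabra4 and Gabrd were lower in library 1. The part of these transcripts in the difference was not tested.

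**Figure D4:**
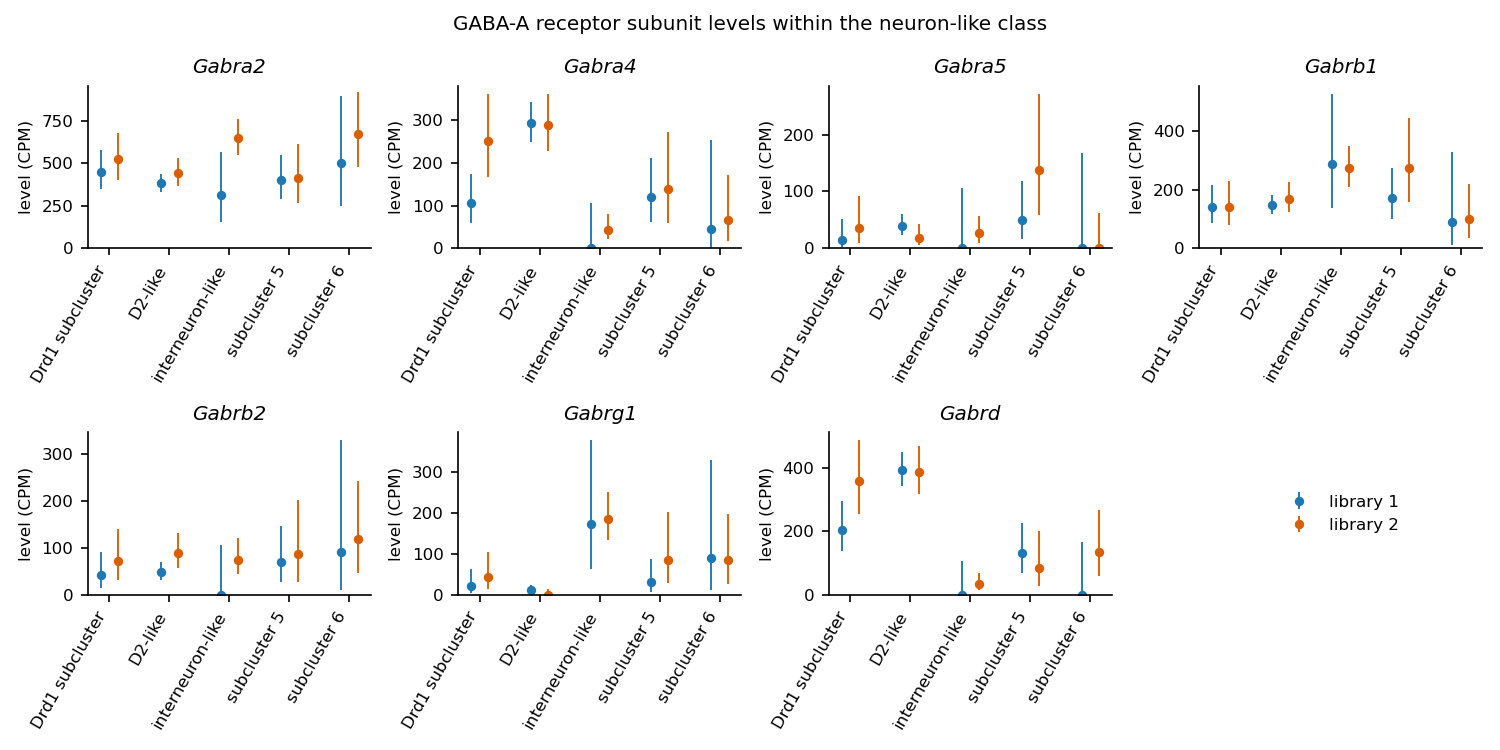
Level of each GABA-A receptor subunit gene in CPM (vertical axes) in the subclusters of the neuron-like class, without those that carried genes of several classes. Points are libraries and bars are 95% exact Poisson intervals; Gabra4 and Gabrd are highest in D2-like cells, whereas Gabrg1 is highest in interneuron-like cells and near 0 in D2-like cells.

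Astrocyte-like cells also varied, although Gabrb1 stayed high through most of the class. Gabrb1 was 536 and 548 CPM in subcluster 0, 487 and 491 in subcluster 1, which Crym led, and 716 and 563 in subcluster 4, led by Agt and Igsf1 and holding 17 and 62 cells. It was 180 and 184 CPM in subcluster 2, which carried neuronal genes, and 48.1 and 44.2 CPM in 19 cells with ependymal genes. Gabrg1 was 120 and 211 CPM in subcluster 0 and 153 and 216 in subcluster 1, and 8.0 and 0 CPM in the ependymal-gene cells. Without the subclusters that carried genes of several classes, the class levels were 504 and 507 CPM for Gabrb1 and 144 and 214 for Gabrg1 in astrocyte-like cells, and 398 and 537 for Gabra2 and 304 and 229 for Gabrd in neuron-like cells, and the counts of members called between classes were as given.

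A finer clustering divided the precursor classes. The OPC-like class split into clusters of 441 and 202 cells. In the first, Gabrb1 was 66.9 and 63.5 CPM and Gabrb2 10.0 and 22.3, and in the second Gabrb1 was 113 and 73.8 CPM, Gabrb2 54.4 and 59.0 and Gabrg1 72.6 and 68.9. The second was shallower, with a median of 1916 UMIs against 8373, and had 9.9% mitochondrial UMIs against 3.7%. Its Gabrb2 values lay above the neuron-like mean of 43.0 CPM but rest on few UMIs, since 3 UMIs make 13.6 and 14.8 CPM there. A cluster of 271 cells with Bmp4 and Gpr17, genes of committed precursors, among its leading genes came entirely from the oligodendrocyte-like class, and it raised 3 of 8 OPC markers and 5 oligodendrocyte markers. There Gabrg1 was 6.4 and 6.1 CPM, Gabrb1 4.8 and 5.6, Gabra2 4.0 and 1.9, Gabrd 2.01 and 0.470 and Gabra4 1.61 and 0.470, and Gabrb2 and Gabra5 had 0 UMIs. In the neuroblast-like clusters, Gabra2 was 87.2 and 70.1 CPM in one of 600 cells led by Pbx3 and Adarb2, which also carried 4 neuron markers, 24.5 and 14.5 CPM in one of 466 cells led by Stmn2 and Dlx6os1, and 7.2 and 7.4 CPM in the progenitor-like cluster of 450 cells. A cluster of 149 ependymal-like cells, 127 from the neuroblast-like and 22 from the astrocyte-like class, also raised 6 astrocyte and 5 neuroblast markers and had Gabrb1 at 143 and 150 CPM, Gabra2 at 50.8 and 25.6 and Gabrg1 at 23.1 and 21.9.

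Because the study concerned astrocytes that express Crym, the gene for μ-crystallin, astrocyte-like cells with Crym above 0.25 in log-normalised units (Crym+, 511 and 437 cells) were compared with the rest (Crym-, 840 and 551 cells). Every cell with at least 1 Crym UMI passed this threshold, so Crym- cells were those in which no Crym UMI was captured. Of 4 members with enough counts, 2 passed in edgeR, against 8.12% of all genes in either direction. Gabra2 was 34.3 CPM (27.1 to 43.0) and 39.1 CPM (31.5 to 47.9) in Crym+ cells and 57.7 CPM (47.9 to 68.8) and 79.5 CPM (67.5 to 93.1) in Crym- cells, with no overlap (log2 fold change -0.92 ± 0.16 SE, adjusted p = 3.3e-05). Gabrg1 was 152 and 222 CPM in Crym+ cells and 115 and 181 in Crym- cells, so the groups overlapped across libraries while Crym+ was higher within each (0.32 ± 0.10, adjusted p = 0.0448). Neither call was made in DESeq2, after thinning, or without the library block, where 0 of 6046 genes were called, and that of Gabrg1 was lost without the mixed subclusters.

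Gabra4 was 38.4 and 52.5 CPM in Crym+ and 30.9 and 52.7 in Crym- cells (0.10 ± 0.17, adjusted p = 0.793, edgeR), and Gabrb1 was 441 and 461 CPM against 433 and 481 (-0.04 ± 0.09, adjusted p = 0.825). Neither gene passed the test. Crym+ cells were deeper, with a median of 2408 and 5218 UMIs against 1446 and 1973. The 10 neuron markers, all detected, summed to 357 and 227 CPM in Crym+ and 538 and 243 CPM in Crym- cells, and the 8 oligodendrocyte markers to 1901 and 758 against 3821 and 926 CPM. The part of depth and of such transcripts in the Gabra2 and Gabrg1 differences was not tested.

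**Figure D5:**
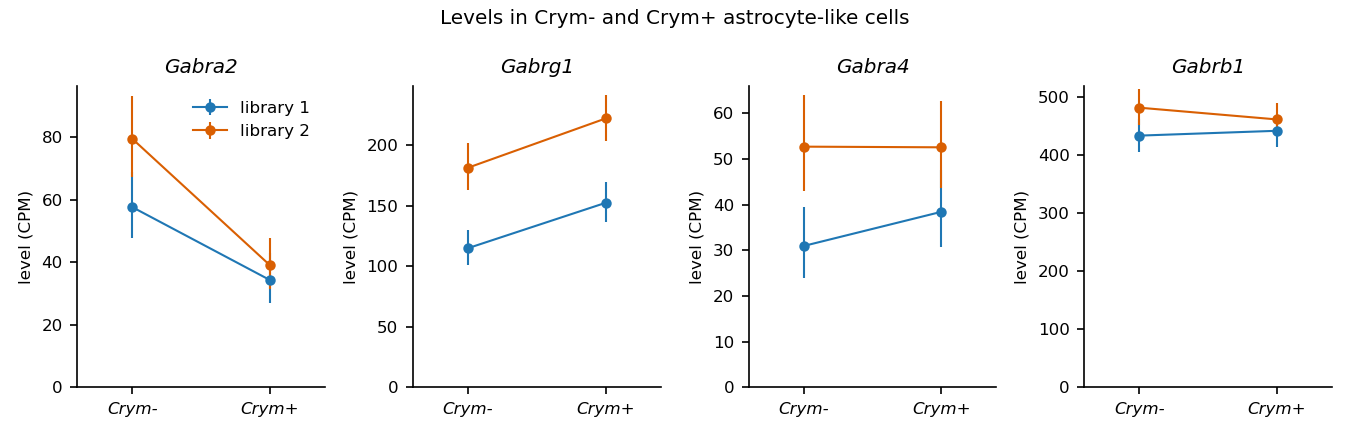
Level in CPM (vertical axes, from 0) of Gabra2, Gabrg1, Gabra4 and Gabrb1 in Crym- and Crym+ astrocyte-like cells. Lines join the groups of 1 library and bars are 95% exact Poisson intervals; Gabra2 is lower and Gabrg1 higher in Crym+ cells of both libraries.

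The remaining subunits and partners of the receptor, a list of 33 genes, gave the members a setting. In neuron-like over astrocyte-like cells, 15 of 27 tested genes of the list were higher and 5 lower, against 23.5% and 27.6% of all genes. Of the 6 other subunits tested, 5 were higher and 0 lower, including Gabra3 (5.22 ± 0.58). Of the 15 anchoring and assembly genes, 8 were higher and 2 lower, among them Shisa7 (5.33 ± 0.40) and Lhfpl4 (2.24 ± 0.26), auxiliary subunits of the receptor. Slc12a5, the potassium-chloride exporter KCC2, was 6.07 ± 0.34 higher, and the benzodiazepine-site ligand Dbi (-3.14 ± 0.30) and Tspo (-2.15 ± 0.32) were lower.

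In OPC-like over astrocyte-like cells, 14 of 27 genes of the list were higher and 2 lower, against 23.0% and 20.3% of all genes. The higher ones included Gabra3 (5.38 ± 0.56) and Shisa7 (4.63 ± 0.40), both on the side of Gabrb2, and the lower ones were Gabbr2 (-1.44 ± 0.23), a subunit of the metabotropic GABA receptor, and Tspo (-3.26 ± 0.33). Gabra3 was 30.1 and 34.9 CPM in OPC-like cells and 20.6 and 34.3 CPM in neuron-like cells. In neuroblast-like over neuron-like cells, 6 of 27 genes of the list were higher and 17 lower, against 28.7% and 25.5% of all genes, with Slc12a5 at -6.62 ± 0.36 and Shisa7 at -4.74 ± 0.37.

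Over the 18 sums of 9 classes and 2 libraries, the members fell into a few shapes, described by Pearson's r of log2(CPM + 10) without a test, since the sums share libraries and depth. Gabrb1 and Gabrg1 had r = 0.95 with each other, Gabra2 and Gabra4 0.97, and Gabra5 and Gabrd 0.99, whereas Gabrg1 and Gabrd had 0.24. Outside neuron-like cells the highest class mean was 1.32 CPM for Gabra5 and 2.80 CPM for Gabrd, below the added 10. Any r of these genes therefore rests mostly on the 2 neuron-like sums. Among 4490 genes that reached 100 CPM, those most like Gabrb1 were Trim9 (0.98), Slc4a4 and Kcnk1 (both 0.97), and those most like Gabrg1 were Kcnk1 (0.98), Trpm3 (0.97) and Cxcl14 (0.96). Cnr1, the cannabinoid receptor CB1, was the nearest gene to Gabra2 (0.99) and among the nearest to Gabra4 (0.98) with Lgi1 and Kcnt1. Gabrd was nearest to Gprin3, Sv2b and Icam5 (0.99), and Gabrb2 to Chga, Stxbp5l and Gap43 (0.98). For Gabra5 the nearest were Gabrd, Rprml and C78859 (0.99).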

How the data were processed

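Single-cell RNA was measured in 2 libraries of 1 group, striatum. The authors assigned reads to genes of mm10 with Cell Ranger and deposited unnormalized UMI counts for each gene in each cell. The submitters' processing notes name version 4.0 and the matrix headers 4.0.0, whereas the study's methods name another. No column was left unused.

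Cells with at least 300 genes and genes in more than 3 cells were kept. Scrublet (expected rate 6%) marked doublets. Seurat 5.3.0 (R 4.3.3) integrated the libraries by canonical correlation, with 30 components and resolution 0.08, leaving out 41 genes, namely the members, the pathway list and Crym. The study's own cell annotation was not used, so a class can differ from the study's. Clusters were named from 3 or more markers raised at least 2-fold, unless leading genes went against the name. The neuron-like class was subclustered with 15 components at resolution 1, without integration of the libraries.

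Summed counts of classes with at least 20 cells per library were tested in edgeR 4.0.16 (quasi-likelihood, TMM) with library as a block. The block was used because both groups of a comparison come from the same suspension. A prior count of 2 entered only the fold changes with 1 library left out, which had no test. DESeq2 1.42.0 was an alternative. Called means a Benjamini-Hochberg adjusted p under 0.05. Scripts were tested on simulated data with a fixed spread. Of genes changed by a log2 fold change of 1, 20% were recovered in neuron-like over astrocyte-like cells. The share was 30% in the Drd1 subcluster over D2-like cells and 16% in Crym+ over Crym- cells. At a change of 2 these shares were 96%, 97% and 64%. The simulated spread was set and not estimated from these data, so the shares need not hold for them. A difference that did not pass is therefore not shown to be absent. Other steps used scanpy 1.11.5, pandas 2.3.3, scipy 1.17.1 and numpy 2.4.6 in Python 3.11.15. Median depth was 3852 and 5375 UMIs per barcode, and intervals cover counting error only. Alternatives were resolution 0.32, other cell filters, doublets kept, library sizes alone, no filter on low counts, no block, robust spread, thinning, each library left out and, chosen after seeing the data, removal of mixed subclusters. Members and gene lists were chosen with earlier results of these data known. Named genes of the pathway list were at most 4 per role and comparison, taken by size among those called (some are not reported here), and nearest genes the 3 with the highest r.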

Additional observations from a re-analysis of the deposited data

How the results depend on the processing

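Of 57 fold changes of members, leaving out Gabrb2 in mural-like over endothelial-like cells (0 UMIs in both), 37 were called, and all 37 kept their sign without replicate 1 and without replicate 2. Of 522 values under other settings with a test, 495 kept direction and call, 9 lost the call and 18 changed sign. Those kept include a Crym threshold of at least 1 UMI, which gave the same groups and so could not differ. The Crym comparison was the least stable. It called 2 members with the library as the replicate block and 1 without mixed subclusters. It called 0 without the replicate block (where 0 of 6046 genes were called), 0 in DESeq2 and 0 after thinning to 1000 UMIs. In each of these last 3 settings, 1 member had an unadjusted p under 0.05. Without the block, 319 of 6046 genes had one. Within the Crym comparison Gabrb1 changed sign to 0.0418 without the count filter. The cause was not tested. Other counts of members called stayed within 1.5 times under each setting.

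Every sign change was in a value that had not passed. Gabrg1 in neuron-like over OPC-like cells became 0.61 at resolution 0.32, 0.40 with at least 500 genes, 0.22 under 20% mitochondrial UMIs and 0.0824 without mixed subclusters. At resolution 0.32 the OPC-like class held 443 and 471 cells, against the 301 and 343 given above. It held 423 and 440 with at least 500 genes, and 671 and 475 under 20% mitochondrial UMIs. In all of these, a cluster named OPC-like had Bmp4 and Gpr17 among its leading genes, so OPC-like comparisons there did not test the same cells. Gabrd in neuroblast-like over astrocyte-like cells became 0.27 at resolution 0.32 and 0.0770 without mixed subclusters. Gabra5 became 0.0441 in OPC-like over astrocyte-like cells without mixed subclusters and -0.38 in OPC-like over oligodendrocyte-like cells at resolution 0.32. In mural-like over endothelial-like cells, Gabra4 became 0.0928 with library sizes alone, 0.66 at resolution 0.32, 0.29 with doublets kept and 0.0431 in DESeq2, Gabra5 0.73 with doublets kept, Gabrb1 0.31 at resolution 0.32, and Gabrd 0.15 at resolution 0.32, 0.83 with doublets kept and 0.0185 with at least 500 genes. With at least 500 genes the neuroblast cluster stayed unnamed, so neuroblast comparisons gave no value there. Few UMIs limit Gabra5, Gabrb2 and Gabrd outside neuron-like cells.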
